A study of Mus musculus with 5 samples.

Results

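The common gamma chain receptors are the cytokine receptors that share the chain encoded by Il2rg. The 9 genes described here are the chains for interleukins 2, 4, 7, 15 and 21 (Il2rg, Il2rb, Il2ra, Il15ra, Il7r, Il4ra and Il21r) and the Janus kinases Jak1 and Jak3, chosen by their symbols among the 23337 genes listed in each library. All 9 were listed and all 9 passed the filter on low counts. Transcripts were measured by RNA sequencing in OT-I CD8+ T cells recovered from B16-OVA tumors, a mouse melanoma line that makes ovalbumin, the antigen that the OT-I T cell receptor recognises. There were 2 libraries from mice given anti-PD-L1 (clone 10F.9G2), an antibody that blocks PD-L1, a ligand of the T cell checkpoint receptor PD-1, and 3 from mice given control anti-KLH rat IgG2b, here called Control IgG. Both groups received 200 µg per mouse on days 3 and 6 after cell transfer, with the tumors taken on day 8 or once they measured 1.2 cm. In both groups the transferred cells came from C57BL/6J CD45.1 OT-I donors aged 6 to 12 weeks. They had been stimulated through CD3 and CD28 and then grown in recombinant interleukin-2 at 10 U/ml until day 5 or 6, so every library comes from cells that had already been exposed to a gamma chain cytokine. Each library pools cells of several mice, sorted as live CD8+ CD45.1+ cells. The labels do not say which mice entered which library, and the p-values below therefore reflect only how much such pools differ.

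In this family the shared gamma chain pairs with chains that set which interleukin is bound. The alpha chains of the interleukin-2 and interleukin-15 receptors add affinity and the beta chain encoded by Il2rb serves both cytokines, while the receptors for interleukins 4, 7 and 21 each use 1 chain of their own beside gamma. Jak1 binds the cytokine-specific signalling chains and Jak3 binds the gamma chain, and together they phosphorylate STAT factors, mainly STAT5 for interleukins 2, 7 and 15, STAT6 for interleukin-4 and STAT3 for interleukin-21. In CD8+ T cells Il7r is high in naive and memory cells and is lost from most effector cells, and Il2ra is induced by antigen receptor stimulation.

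The libraries held 9985943 to 12830485 counts assigned to genes. Anti-PD-L1 replicate 1 and Control IgG replicate 1 detected 11977 and 11696 genes, fewer than the 13564 to 13801 detected by the remaining 3 libraries, so results are also given without them where that matters. Levels are given as CPM, which are counts scaled to library size, here corrected by TMM factors so that libraries can be compared. Counts of the 9 genes ran from 183 to 24872 per library, and the smallest of these has a counting error of 7.39%. Read copies made by PCR were not separable, so this covers counting error only. In bulk samples, fewer cells of a kind and less RNA per cell cannot be told apart.

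The shared chain differed between the groups by less than its spread. Il2rg had 1536 and 1854 CPM in anti-PD-L1 replicates 1 and 2, against 1776, 1597 and 1463 CPM in Control IgG replicates 1, 2 and 3. The groups overlapped, and 1 anti-PD-L1 library lay within the controls and the other above them. The log2 fold change, anti-PD-L1 over Control IgG, was 0.07 ± 0.24 (SE), with a 95% interval of -0.47 to 0.62, which allows folds between 0.72 and 1.53. Il2rg lies on the X chromosome from 101264378 to 101268255 on the minus strand of GRCm38.

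Il2rb, the signalling chain that interleukin-2 and interleukin-15 share, on chromosome 15 from 78479256 to 78495271, had a log2 fold change above 0 under every alternative run. It stood at 2229 and 1294 CPM in anti-PD-L1 replicates 1 and 2, against 1148, 973 and 1276 CPM in Control IgG replicates 1, 2 and 3. Each anti-PD-L1 library exceeded all 3 controls, replicate 1 by a wide margin and replicate 2 only just. The means were 1761 ± 662 CPM after anti-PD-L1 (SD, n = 2) and 1132 ± 152 CPM in controls (SD, n = 3). The log2 fold change was 0.64 ± 0.29 (SE), a fold of 1.56 with a 95% interval of 0.975 to 2.48. The edgeR quasi-likelihood test gave an unadjusted p of 0.0608 and an adjusted p of 0.9999 over all genes. Leaving out anti-PD-L1 replicate 1 gave a log2 fold change of 0.19, and leaving out replicate 2 gave 1.01.

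**Figure D1:**
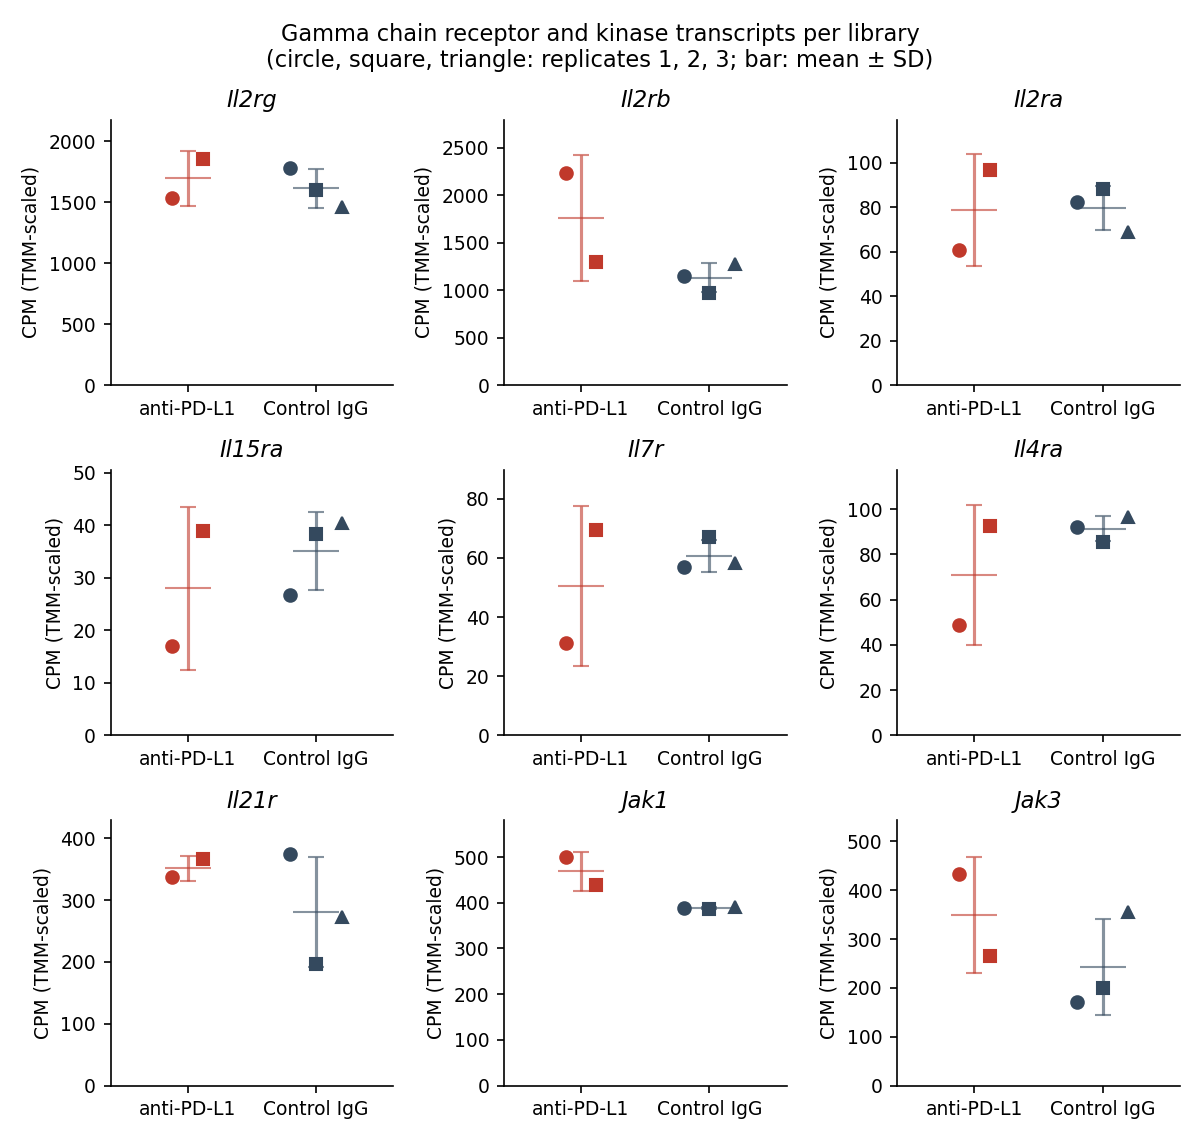
Levels of the 9 transcripts per library in TMM-scaled CPM, on axes that start at 0. Red points are the 2 anti-PD-L1 libraries and dark points the 3 Control IgG libraries, with circles, squares and triangles for replicates 1, 2 and 3 and bars for mean ± SD. The red circle is the highest point for Il2rb, Jak1 and Jak3 and the lowest for Il2ra, Il15ra, Il7r and Il4ra.

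The cytokine-specific alpha chains Il15ra, Il7r and Il4ra were low in anti-PD-L1 replicate 1 and near the controls in anti-PD-L1 replicate 2, and Il2ra was low in the same library by a smaller margin. Il7r, the interleukin-7 receptor alpha chain, had 31.3 and 69.5 CPM in anti-PD-L1 replicates 1 and 2, against 57.0, 67.0 and 58.2 CPM in Control IgG replicates 1, 2 and 3. Il4ra, the interleukin-4 receptor alpha chain, had 49.0 and 92.7 CPM after anti-PD-L1, against 92.1, 85.7 and 96.4 CPM in controls. In both cases the controls lay close together, and the 2 anti-PD-L1 libraries differed from each other more than any 2 controls did. Il15ra, which binds interleukin-15 with high affinity and can present it to neighbouring cells, had 17.0 and 39.0 CPM after anti-PD-L1, against 26.7, 38.3 and 40.5 CPM in controls. Il2ra, the CD25 chain that completes the high-affinity interleukin-2 receptor, had 60.9 and 96.8 CPM after anti-PD-L1, against 82.4, 88.2 and 68.9 CPM in controls. For Il15ra the lowest control was replicate 1, and for Il2ra the controls spread by a ratio of 1.28 between the highest and the lowest. For each of these 4 chains the groups overlapped, since anti-PD-L1 replicate 1 was the lowest of the 5 libraries and replicate 2 lay at or above the control mean. Among all 11299 genes tested, 27.9% were lowest in anti-PD-L1 replicate 1 and 24.3% highest there.

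The level in anti-PD-L1 replicate 1 was 0.435 times that in replicate 2 for Il15ra, 0.451 times for Il7r, 0.528 times for Il4ra and 0.63 times for Il2ra. The log2 fold change of Il15ra was -0.33 ± 0.41 (SE), with a 95% interval of -1.26 to 0.60. Leaving out anti-PD-L1 replicate 1 gave 0.15, while leaving out replicate 2 gave -1.02. That of Il7r was -0.27 ± 0.36, with an interval of -1.08 to 0.55, and leaving out anti-PD-L1 replicate 1 gave 0.19, while leaving out replicate 2 gave -0.92. Both intervals include a 2-fold lower level as well as no difference. The log2 fold change of Il4ra was -0.37 ± 0.31, with an interval of -1.08 to 0.35, and leaving out anti-PD-L1 replicate 1 gave 0.02, while leaving out replicate 2 gave -0.87. That of Il2ra was -0.02 ± 0.28, with an interval of -0.67 to 0.63, and leaving out anti-PD-L1 replicate 1 gave 0.28, while leaving out replicate 2 gave -0.36. The direction of each therefore depends on which anti-PD-L1 library is used.

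Other markers were low in the same library. Summed levels of marker lists are in CPM by library total, without TMM factors. The summed level of 10 markers of naive and memory T cells, the cells in which Il7r is known to be high, was 299 and 1986 CPM after anti-PD-L1, against 1775, 1334 and 1168 CPM in controls. Ccr7 was the highest of the 10 and made up a large part of this sum. In TMM-scaled CPM it had 153 and 1314 after anti-PD-L1, against 1378, 665 and 545 in controls. All 10 had a log2 fold change below 0, while 48.1% of all tested genes lay above 0. Of the 10, 4 were below every control in both anti-PD-L1 libraries, which 9.58% of all tested genes were. In anti-PD-L1 replicate 2 alone the 10 markers lay on both sides of the control mean. They ran there from -0.73 for Id3 to 0.73 for Ccr7 on the log2 scale. Their low sum in anti-PD-L1 replicate 1 went with the low Il7r there, and its part in the Il7r value was not tested. The controls did not follow the same order. Control IgG replicate 1 had the highest sum of the controls, 1775 CPM, and the lowest Il7r of them, 57.0 CPM. Of 14 macrophage and dendritic cell markers, 12 were tested and 9 of them lay below 0, and the sum of the 13 listed was 187 and 375 CPM after anti-PD-L1, against 523, 276 and 258 CPM in controls. Il4ra and Il15ra are also expressed in such cells, which the sort for CD8+ CD45.1+ cells would be expected to remove, and the part of that low sum in their values was not tested. Control IgG replicate 1, with the highest such sum, had the lowest Il15ra of the controls, 26.7 CPM. Its Il4ra, 92.1 CPM, lay between those of the other controls.

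These 4 chains include a pair of chromosomal neighbours. Il2ra spans chromosome 2 from 11642807 to 11693193 and Il15ra from 11705290 to 11734317 on GRCm38, both on the plus strand, with 12.1 kb and no protein-coding gene between them. Il4ra, on chromosome 7 from 125552120 to 125579474, likewise has a member next to it, Il21r, from 125603429 to 125633570 on the same strand and 24.0 kb away. Il7r, on chromosome 15 from 9505788 to 9530176 on the minus strand, has no member next to it and shares the chromosome with the distant Il2rb. The neighbours Il4ra and Il21r did not share a pattern over the libraries, since Il21r was not low in anti-PD-L1 replicate 1. The neighbours Il2ra and Il15ra were both lowest in that library but differed among the controls. Control IgG replicate 3 was the lowest control for Il2ra, at 68.9 CPM, and the highest for Il15ra, at 40.5 CPM.

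The promoter windows of these 4 chains are shown because their transcripts were lowest in the same library. Each runs from 250 bases before to 50 bases after a start site in RefSeq annotation on GRCm38.p6, and 8 of the 9 genes matched the table. Il15ra has 2 annotated starts. Capitals mark matches, on either strand, to a STAT motif TTCNNNGAA, a forkhead motif TGTTTAC, an ETS motif AGGAAGT, an AP-1 motif TGANTCA, a RUNX motif TGTGGTT and the NF-kappaB consensus.
Il2ra, chr2:11642542-11642841, plus strand: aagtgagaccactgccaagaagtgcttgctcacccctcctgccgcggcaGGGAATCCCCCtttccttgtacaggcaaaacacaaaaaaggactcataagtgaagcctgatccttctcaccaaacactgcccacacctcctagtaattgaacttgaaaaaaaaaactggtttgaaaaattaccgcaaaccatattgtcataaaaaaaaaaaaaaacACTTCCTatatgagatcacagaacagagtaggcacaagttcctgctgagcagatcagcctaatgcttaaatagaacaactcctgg
Il7r, chr15:9529827-9530126, minus strand: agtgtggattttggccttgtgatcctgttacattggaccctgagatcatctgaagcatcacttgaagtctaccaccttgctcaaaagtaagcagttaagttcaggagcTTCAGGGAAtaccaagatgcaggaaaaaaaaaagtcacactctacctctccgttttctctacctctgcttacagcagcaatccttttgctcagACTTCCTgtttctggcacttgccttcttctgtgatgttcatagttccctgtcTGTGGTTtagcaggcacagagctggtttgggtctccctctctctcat
Il4ra, chr7:125552021-125552320, plus strand: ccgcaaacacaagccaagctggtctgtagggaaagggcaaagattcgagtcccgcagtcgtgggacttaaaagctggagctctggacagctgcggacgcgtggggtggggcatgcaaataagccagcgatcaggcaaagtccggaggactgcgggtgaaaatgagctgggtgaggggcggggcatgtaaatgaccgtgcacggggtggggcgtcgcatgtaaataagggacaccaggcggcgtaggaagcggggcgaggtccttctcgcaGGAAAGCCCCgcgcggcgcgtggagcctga
Il15ra start 1, chr2:11705043-11705342, plus strand: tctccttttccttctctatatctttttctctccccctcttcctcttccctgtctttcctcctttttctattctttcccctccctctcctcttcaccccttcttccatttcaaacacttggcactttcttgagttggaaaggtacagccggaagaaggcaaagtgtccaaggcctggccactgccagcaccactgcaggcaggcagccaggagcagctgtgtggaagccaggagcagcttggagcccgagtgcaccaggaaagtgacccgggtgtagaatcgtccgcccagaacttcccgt
Il15ra start 2, chr2:11705462-11705761, plus strand: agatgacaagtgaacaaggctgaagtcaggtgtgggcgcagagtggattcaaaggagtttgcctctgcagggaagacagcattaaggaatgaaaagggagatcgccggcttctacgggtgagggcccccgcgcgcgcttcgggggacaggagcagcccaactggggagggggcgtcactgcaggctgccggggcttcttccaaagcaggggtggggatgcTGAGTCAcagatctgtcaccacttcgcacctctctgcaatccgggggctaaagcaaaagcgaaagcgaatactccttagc
The Il7r window held 1 STAT match, 1 ETS match and 1 RUNX match, and was the only window of these with a STAT match. Its STAT match was TTCAGGGAA, which begins at position -142 relative to the start. The Il2ra window held 1 ETS match at -35 and 2 overlapping NF-kappaB matches at -201 and -200, and the Il4ra window 1 NF-kappaB match at 21. The second Il15ra window held 1 AP-1 match at -30 and the first held no match. Over 32544 promoter windows of the same length, 8.33% held a STAT match, 9.27% an ETS match, 5.29% a RUNX match, 7.79% an AP-1 match, 8.49% an NF-kappaB match and 3.66% a forkhead match. No motif was found in all 4 genes. Of the other members with a window, only Il21r held a match, the forkhead motif at -38.

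Il21r, the interleukin-21 receptor, was high in both anti-PD-L1 libraries and in 1 control. It had 337 and 366 CPM in anti-PD-L1 replicates 1 and 2, against 374, 197 and 272 CPM in Control IgG replicates 1, 2 and 3. The anti-PD-L1 libraries were close together while the controls spread by a ratio of 1.90, and the groups overlapped through Control IgG replicate 1. Il21r had a log2 fold change of 0.32 ± 0.30 (SE), with a 95% interval of -0.37 to 1.01. It was 0.58 without Control IgG replicate 1 and 0.12 without Control IgG replicate 2, at edgeR adjusted p-values of 0.979 and 0.999.

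The kinases had log2 fold changes above 0. Jak1 lies on chromosome 4 from 101152367 to 101265282 and Jak3 on chromosome 8 from 71676296 to 71690575. Jak1 had 499 and 438 CPM in anti-PD-L1 replicates 1 and 2, against 388, 386 and 390 CPM in Control IgG replicates 1, 2 and 3. The 3 controls differed by a ratio of 1.01, the narrowest control spread of the 9 genes, and each anti-PD-L1 library lay above them. Jak1 had a log2 fold change of 0.27 ± 0.22 (SE), a fold of 1.21 with a 95% interval of 0.849 to 1.72, at an unadjusted p of 0.252 in edgeR's quasi-likelihood test. This error comes from a model that shares the spread among genes of like level, so it is wider than the agreement of the 3 controls alone. Jak3 had 434 and 266 CPM after anti-PD-L1, against 172, 200 and 356 CPM in controls. Its groups overlapped, because Control IgG replicate 3 lay above anti-PD-L1 replicate 2, and its controls spread by a ratio of 2.07, the widest of the 9 genes. For Jak3 the log2 fold change was 0.53 ± 0.37 (SE), with a 95% interval of -0.32 to 1.37. It was 0.13 without anti-PD-L1 replicate 1, 0.87 without anti-PD-L1 replicate 2, 0.91 without Control IgG replicate 3 and -0.08 without both libraries numbered 1.

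**Figure D2:**
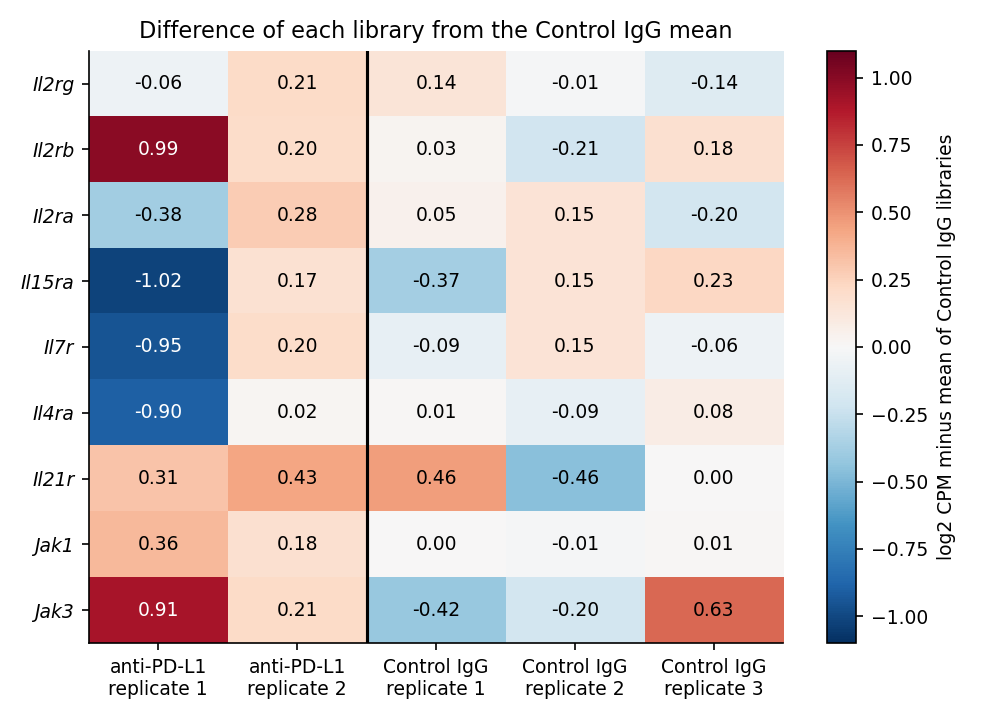
Log2 CPM of each transcript in each library minus the mean of the 3 Control IgG libraries, with the 2 anti-PD-L1 libraries left of the line and the 3 Control IgG libraries right of it. Anti-PD-L1 replicate 1 ranges from -1.02 for Il15ra to 0.99 for Il2rb, while anti-PD-L1 replicate 2 stays between 0.02 and 0.43.

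The 9 genes divided in anti-PD-L1 replicate 1 and not in replicate 2. In replicate 1, Il2rb and Jak3 lay 0.99 and 0.91 above the control mean on the log2 scale, and Il15ra, Il7r and Il4ra lay at -1.02, -0.95 and -0.90. In replicate 2 all 9 lay between 0.02 and 0.43 above it. Control IgG replicate 1, where fewer genes were also detected, had Jak3 at -0.42 and Il15ra at -0.37, with Il2rb, Il7r and Il4ra at 0.03, -0.09 and 0.01. Over the 5 libraries, profiles centred on their own means were closest for Il7r and Il4ra, with a root mean square difference of 0.15 on the log2 scale, and farthest apart for Il2rb and Il15ra, with 0.84.

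None of the 9 genes passed an adjusted p of 0.05 in edgeR's quasi-likelihood test, and each had an adjusted p of 0.9999. Over the 11299 genes the test called 0, which is 0% of those tested, and none of the 9 had an unadjusted p under 0.05, which 2.13% of all tested genes had. DESeq2, run without the low-count filter, called 4 of 15088 genes, 0.0265%, and none of the 9, and limma-voom called 0 genes. Of the 9 genes, 5 had a log2 fold change above 0, with a median of 0.07, while 48.1% of all tested genes lay above 0, with a median of -0.02. The groups did not overlap, with anti-PD-L1 higher, for 2 of the 9, Il2rb and Jak1, and this held for 7.74% of all tested genes. Both were lower than all 3 controls for 0 of the 9 and for 9.58% of all tested genes. Without both libraries numbered 1, the log2 fold change of Il2rb was 0.19, of Jak1 0.16 and of Il21r 0.63. In some alternatives that kept both anti-PD-L1 libraries, Il2rb and Jak3 had an unadjusted p under 0.05. For Il2rb it was 0.044 in edgeR on library totals only, 0.0382 in DESeq2 and 0.0359 in edgeR with the replicate number as a block. For Jak3 it was 0.0178 in edgeR with that block and 0.0322 in edgeR without Control IgG replicate 3. None of these passed an adjusted p of 0.05.

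**Figure D3:**
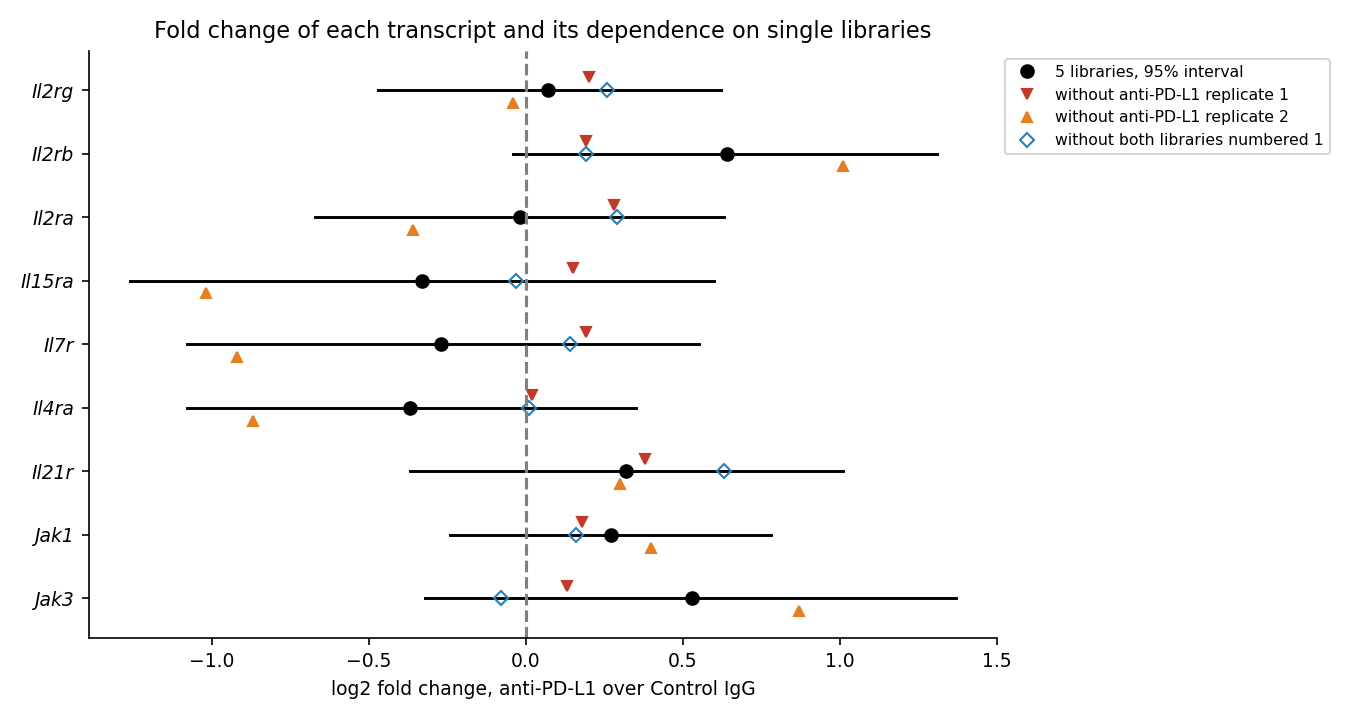
Log2 fold change of each transcript, anti-PD-L1 over Control IgG, with black points and lines for all 5 libraries and their 95% interval, and coloured symbols for fits without 1 anti-PD-L1 library or without both libraries numbered 1. All 9 intervals include 0. For Il2rg, Il15ra, Il7r, Il4ra and Il2ra the fits that leave out anti-PD-L1 replicate 1 or replicate 2 lie on opposite sides of 0.

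Divided by exon length, the transcripts covered a wide range. In CPM per kilobase of exon, taken from GENCODE vM21, Il2rg averaged 710 ± 94.1 after anti-PD-L1 and 675 ± 65.7 in controls, and Il2rb averaged 411 ± 154 after anti-PD-L1 and 264 ± 35.5 in controls (SD, n = 2 and n = 3). Il21r averaged 106 ± 6.13 after anti-PD-L1 and 84.5 ± 26.7 in controls. Jak1 averaged 64.9 ± 5.95 after anti-PD-L1 and 53.7 ± 0.337 in controls, and Jak3 averaged 65.5 ± 22.2 after anti-PD-L1 and 45.4 ± 18.5 in controls. The alpha chains formed the low end. Il4ra averaged 11.8 ± 5.15 after anti-PD-L1 and 15.2 ± 0.899 in controls, and Il2ra averaged 13.8 ± 4.44 after anti-PD-L1 and 14.0 ± 1.73 in controls. Il7r averaged 10.8 ± 5.79 after anti-PD-L1 and 13.0 ± 1.17 in controls, and Il15ra averaged 6.29 ± 3.50 after anti-PD-L1 and 7.91 ± 1.67 in controls. In the controls, neighbours in this order whose libraries overlapped were Jak1 and Jak3, Il4ra and Il2ra, and Il2ra and Il7r. Il4ra and Il2ra change places when the longest transcript is used in place of all exons, and Il15ra, with many annotated isoforms, then averages 13.9 over the 5 libraries in place of 7.26.

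**Figure D4:**
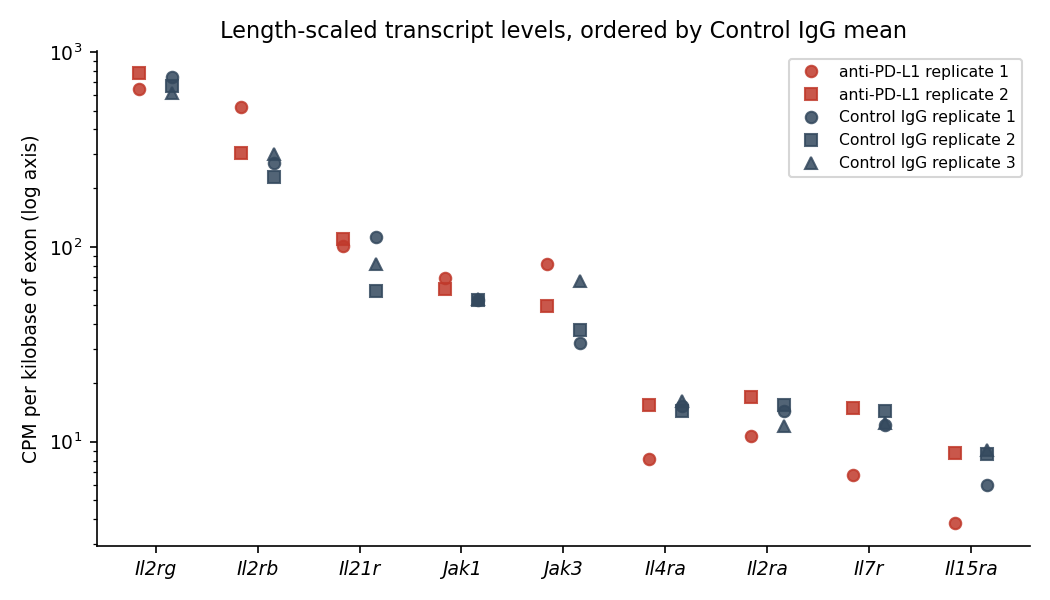
Transcript level in CPM per kilobase of exon on a log axis for each library, red for anti-PD-L1 and dark for Control IgG, with genes ordered by their mean in Control IgG. Il2rg and Il2rb stand highest and the chains Il4ra, Il2ra, Il7r and Il15ra lowest, and the red circle for anti-PD-L1 replicate 1 is the lowest point for the last 4 and the highest for Il2rb, Jak1 and Jak3.

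Of the summed length-scaled level of the 7 receptor chains, Il2rb made up 40.2% and 24.3% in anti-PD-L1 replicates 1 and 2, against 22.9%, 22.5% and 28.6% in Control IgG replicates 1, 2 and 3. Il2rg made up 49.8% and 62.4% after anti-PD-L1, against 63.5%, 66.4% and 58.8% in controls. Anti-PD-L1 replicate 1 thus had the highest Il2rb share and the lowest Il2rg share of the 5 libraries, and replicate 2 lay within the controls for both. The shares sum to a fixed whole, and the Il2rg level itself, 644 CPM per kilobase in anti-PD-L1 replicate 1, lay within the 613 to 744 of the controls. Il7r made up 0.519% and 1.20% after anti-PD-L1, against 1.04%, 1.43% and 1.20% in controls.

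Genes with the most similar profiles over the 5 libraries were looked up among 7699 other genes of at least moderate level. With so few libraries such likeness is a description of these samples. Closest to Il2rb was Pglyrp1, which encodes a peptidoglycan recognition protein, with a root mean square difference of 0.05 on the log2 scale, followed by Mtmr2 at 0.061 and Copb1 at 0.066. Pglyrp1 stood at 190 and 110 CPM after anti-PD-L1, against 100, 83.9 and 101 CPM in controls. Closest to Il7r were Prkrir at 0.06, Pcf11 at 0.066 and the LIM domain binding factor gene Ldb1 at 0.069. Closest to Il4ra were Isyna1 at 0.05, Glul, which encodes glutamine synthetase, at 0.051, and Gemin5 at 0.065, and closest to Il15ra were Morc2a at 0.049, Ccnl2 at 0.072 and Zbtb48 at 0.079. Among the genes nearest to Il2ra were Gch1 at 0.055 and Zfr at 0.066, and Il21r was nearest to the co-chaperone gene Bag3 at 0.062, Snx20 at 0.074 and Akirin2 at 0.082. Il2rg was nearest to the translation initiation factor gene Eif3f and to Pddc1, both at 0.018, and to Zfp655 at 0.02. Jak1 was nearest to Fam89b at 0.022, Slu7 at 0.039 and Dnase1l1 at 0.047, and Jak3 to the deacetylase gene Hdac6 at 0.062, the interferon-induced gene Ifit2 at 0.067 and the fucosyltransferase gene Fut8 at 0.077.

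The other genes of the pathway gave no call either. Of 42 such genes, 35 were tested, 0 passed the adjusted threshold in edgeR's quasi-likelihood test and 3 had an unadjusted p under 0.05, against 2.13% of all tested genes. Of the 6 ligand genes, only Il2 passed the filter on low counts. Il2, the growth factor that activated T cells make themselves, had 2.97 and 12.9 CPM after anti-PD-L1, against 11.9, 27.5 and 14.6 CPM in controls, with a log2 fold change of -1.17 ± 0.66 (SE). It was lowest in anti-PD-L1 replicate 1, and replicate 2 lay within the controls. Il4 and Il9 had 0 counts in all 5 libraries, where a floor of 3 counts allows up to 0.224 to 0.28 CPM per library. Il7, Il15 and Il21 stood between 0 and 0.841 CPM.

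Crlf2, which pairs with the Il7r chain in the receptor for thymic stromal lymphopoietin, had 50.8 and 31.6 CPM after anti-PD-L1, against 30.8, 19.1 and 26.1 CPM in controls. Each anti-PD-L1 library exceeded all 3 controls, at a log2 fold change of 0.70 ± 0.34 (SE) and an unadjusted p of 0.0723 in edgeR. Crlf2 was thus highest in anti-PD-L1 replicate 1, where Il7r was lowest. The other 2 chains listed, Il9r and Il13ra1, did not pass the filter on low counts.

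Of 12 signal transducers, 8 had a log2 fold change above 0, with a median of 0.09. Stat3, which interleukin-21 activates, had 610 and 677 CPM after anti-PD-L1, against 499, 436 and 592 CPM in controls, with each anti-PD-L1 library higher than all 3 controls and a log2 fold change of 0.34 ± 0.24 (SE). Stat5b had a log2 fold change of 0.42 ± 0.33 and its relative Stat5a one of -0.19 ± 0.33. Sos1, an exchange factor for Ras, had a log2 fold change of -0.96 ± 0.67 at a mean of 4.22 CPM after anti-PD-L1 and 8.27 CPM in controls. Of 7 feedback inhibitors, 2 lay above 0, with a median of -0.03. Cish, a STAT5 target that restrains cytokine signalling, had 149 and 231 CPM after anti-PD-L1, against 164, 149 and 135 CPM in controls, with a log2 fold change of 0.35 ± 0.27. Socs2 had a log2 fold change of -0.30 ± 0.47 and the adaptor gene Sh2b3 one of -0.30 ± 0.64.

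Of 14 genes known as targets of STAT5 or interleukin-2, 7 lay above 0 and 7 below, with a median of 0.00. For 2 of them the anti-PD-L1 libraries were higher than all controls, as for 7.74% of all tested genes, and for 2 lower than all controls, as for 9.58%. Prdm1, which encodes the effector factor Blimp-1, had 121 and 66.1 CPM after anti-PD-L1, against 48.0, 49.4 and 54.1 CPM in controls, and a log2 fold change of 0.89 ± 0.30 (SE) at an unadjusted p of 0.0182 in edgeR. Pim2, a survival kinase gene, had 96.0 and 169 CPM after anti-PD-L1, against 273, 217 and 189 CPM in controls, and a log2 fold change of -0.77 ± 0.32 at an unadjusted p of 0.0399 in edgeR. Gzmb, which encodes granzyme B, had a log2 fold change of 1.16 ± 0.42 at an unadjusted p of 0.0253 in edgeR, with anti-PD-L1 replicate 2 within the controls.

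**Figure D5:**
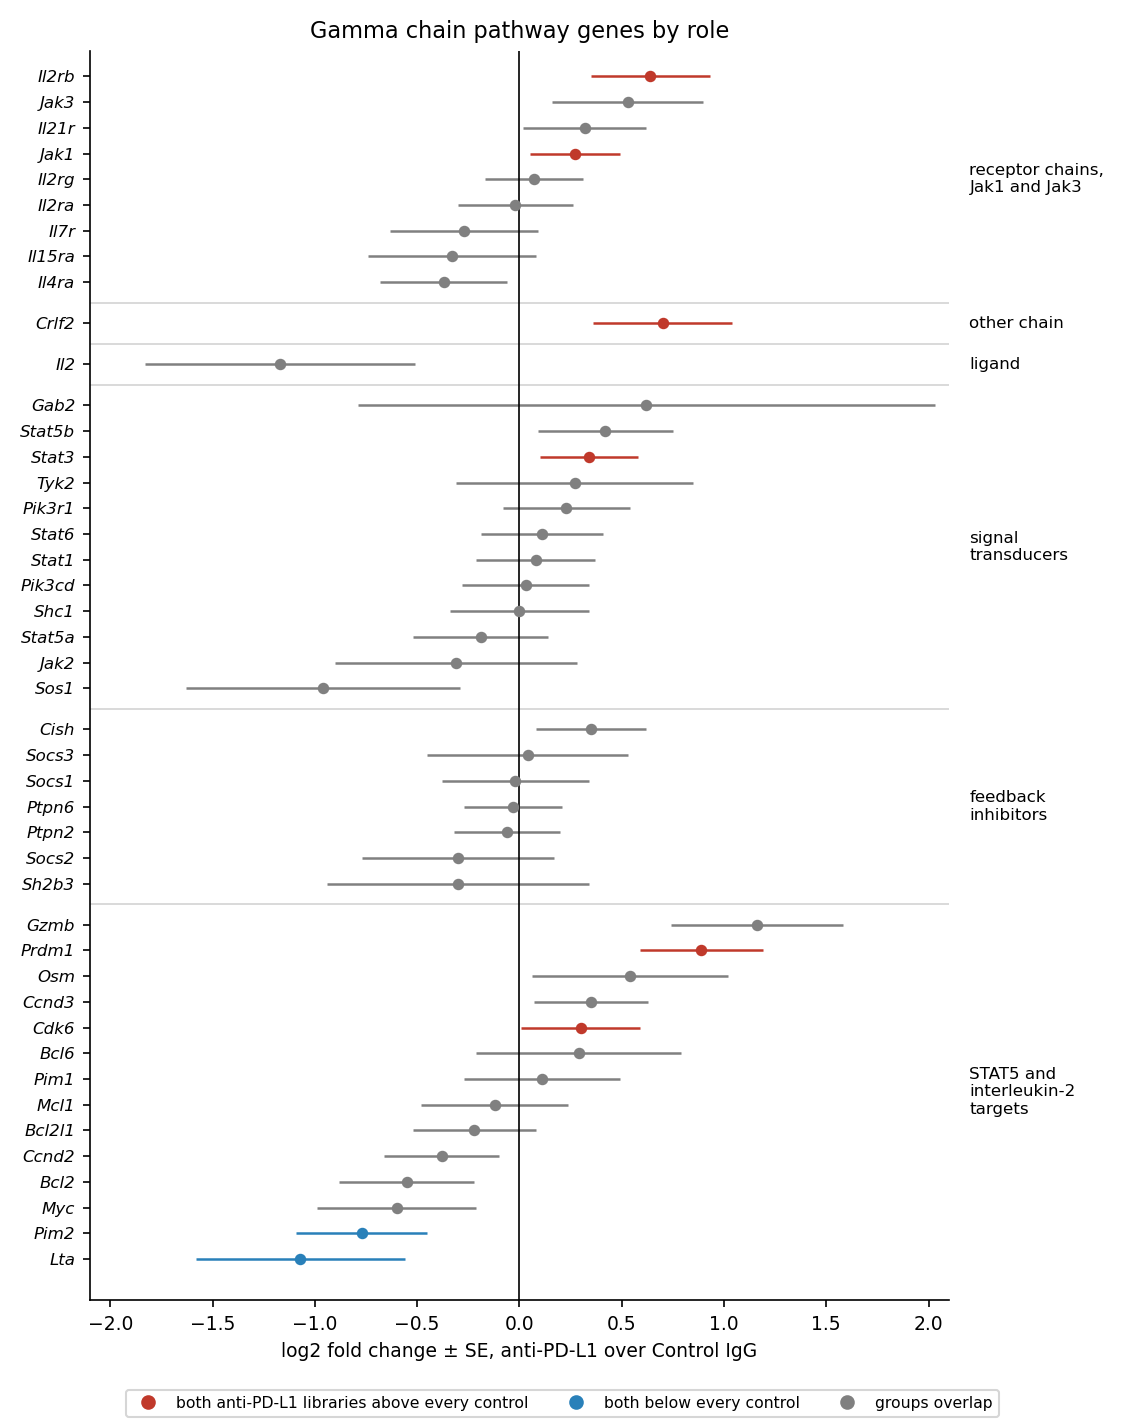
Log2 fold change ± SE, anti-PD-L1 over Control IgG, for the 9 receptor and kinase genes and the 35 tested pathway genes, grouped by role. Red marks genes for which the 2 anti-PD-L1 libraries exceed all 3 controls, blue those for which they lie below all 3, and grey those whose groups overlap, among them Il2, Sos1 and Gzmb.

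Marker levels describe what else the sorted cells held. Of 10 CD8 T cell markers, all 10 were tested, and their summed level was 10704 and 9639 CPM after anti-PD-L1, against 9743, 9042 and 9182 CPM in controls. Foxp3, which marks the regulatory T cells that carry much Il2ra, stood at 4.73 and 5.59 CPM after anti-PD-L1, against 3.04, 6.07 and 2.38 CPM in controls. The 7 regulatory and CD4 T cell markers, of which 6 were tested and 4 lay above 0, summed to 485 and 839 CPM after anti-PD-L1, against 689, 798 and 598 CPM in controls. Cd4 itself stood at 0 and 0.298 CPM after anti-PD-L1, against 0, 0 and 1.23 CPM in controls.

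Natural killer cells carry much Il2rb. Of 8 markers of these cells 4 were tested, with 2 of the 4 above 0. Klra4 and Klra8 were at 0 in all 5 libraries, and Ncr1 stood at 0 and 0.224 CPM after anti-PD-L1, against 0.179, 0 and 0.0767 CPM in controls. Itga2, also on the list, had 4.73 and 2.01 CPM after anti-PD-L1, against 1.07, 1.68 and 1.15 CPM in controls, with a log2 fold change of 1.36 ± 0.86 (SE). It was above every control and highest in anti-PD-L1 replicate 1, as Il2rb was, but the other tested markers did not share this pattern. Klrb1c had 3.15 and 2.16 CPM after anti-PD-L1, against 4.29, 2.06 and 4.75 CPM in controls, with a log2 fold change of -0.48. Eomes had 6.49 and 27.5 CPM after anti-PD-L1, against 31.7, 27.7 and 17.8 CPM in controls. Its log2 fold change was -0.59, and it was lowest in anti-PD-L1 replicate 1. The part of such cells in the Il2rb value was not tested. Most of the summed level of the list, 1022 and 951 CPM after anti-PD-L1 against 1110, 845 and 828 CPM in controls, was Klrk1, which activated CD8+ T cells also express. B cell markers summed to 1.30 and 5.07 CPM after anti-PD-L1, against 5.32, 3.61 and 6.49 CPM in controls, with Pax5 and Ebf1 at 0 throughout. Neutrophil markers summed to 3.45 and 7.17 CPM after anti-PD-L1, against 2.34, 11.6 and 6.25 CPM in controls, with S100a9 at 0 throughout. Melanoma markers summed to 40.1 and 103 CPM after anti-PD-L1, against 4.03, 300 and 95.1 CPM in controls, and all 6 of those tested lay below 0. They were lowest in Control IgG replicate 1 and highest in Control IgG replicate 2, the library in which Il21r was lowest, and their part in that value was not tested.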

How the data were processed

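The 5 libraries were made from poly(A) RNA of 5000 to 30000 sorted cells by a modified Smart-seq2 protocol with 8 and then 12 PCR cycles, which marks neither strand nor molecule. The authors deposited whole-number read counts per gene, without normalization. TopHat, HTSeq and the build mm10 are named, per the submitters' processing notes, and no version, annotation or strand setting is given in the sources used here. Per the file contents, 5 counter lines followed the genes. They were left out, and reads without a feature made up 7.46% to 15.2% and ambiguous reads 1.38% to 1.51% of all counts. In GENCODE, Jak3 holds Insl3 and Il2rg lies within the predicted gene Gm20489, both on the same strand, so reads they share cannot be told apart. Jak1 meets Raver2 and Il4ra holds Gm44876 on the opposite strand, which libraries without strand do not separate either.

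Groups came from the treatment labels. All genes were fitted together in edgeR 4.0.16 (R 4.3.3) and compared with its two-sided quasi-likelihood test, after TMM scaling and filterByExpr (minimum count of 10, minimum total of 15), which kept 11299 genes, and Benjamini-Hochberg adjustment over all of them at 0.05. SEs were derived from the fold change and the F statistic, and log2 CPM used a prior count of 2. Summed marker levels were divided by library totals only. The deposited counts of any pair of libraries differed by more than sampling noise. Alternatives used DESeq2 1.42.0, limma-voom 3.58.1, other scalings and filters, a replicate block and left-out libraries. The edgeR script was tested on simulated data. Promoters came from RefSeq and positions and exon lengths from GENCODE vM21, both on GRCm38, the assembly that mm10 denotes.

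The 9 genes and the lists were chosen with earlier results of these data known. All 9 were named, with the 3 genes of smallest p per pathway list and, per gene, the 3 most similar profiles, by root mean square difference, above an average of 3 log2 CPM, predicted gene models passed over. A result that needs a withheld item is not reported here. Stat5a and the ligand and receptor genes that were not tested were named outside this rule after their values were seen. So were Foxp3, Cd4, Ncr1, Itga2, Klrb1c, Eomes, Insl3 and the markers at 0. Ccr7 and Klrk1 were named as the genes of highest mean CPM in their marker lists.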

Additional observations from a re-analysis of the deposited data

How the results depend on the processing

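Depth did not limit the 9 genes, whose counts were at least 183, and the 95% intervals of all 9 log2 fold changes included 0. None of the 9 was called under any of the 13 alternatives run. Genes called higher numbered 0 in edgeR as reported, 5 without the low-count filter, 4 in DESeq2, also run without that filter on 15088 genes, and 1 without both libraries numbered 1. The log2 fold changes of Il2rb, Il21r and Jak1 kept their sign throughout. With 1 library left out at a time, they ran from -0.36 to 0.28 for Il2ra, from -0.04 to 0.20 for Il2rg, from -0.92 to 0.19 for Il7r, from -0.87 to 0.02 for Il4ra and from -1.02 to 0.15 for Il15ra. Without both libraries numbered 1 they were 0.29 for Il2ra, 0.14 for Il7r, 0.01 for Il4ra and -0.08 for Jak3, and the cause was not tested. Where 1 anti-PD-L1 library was left out, the remaining one was assumed to vary like the controls.

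In alternatives chosen after seeing the data, anti-PD-L1 lay above every control for 5 of the 9 without anti-PD-L1 replicate 1, where 21.7% of all tested genes did, and for 6 without both libraries numbered 1, where 32.1% did, since fewer libraries have to be ordered. The replicate numbers 1 and 2 are shared between the groups, but the labels do not say that they pair the libraries. Deviations from the group means correlated across genes at 0.33 for number 1 and 0.37 for number 2, against -0.37 and -0.33 for unlike numbers 1 and 2, and -0.16 and 0.16 with Control IgG replicate 3. With 2 anti-PD-L1 libraries the deviations mirror each other, so these values are not separate evidence. With the replicate number as a block 0 genes were called, and the log2 fold change was 0.68 for Il2rb and 0.87 for Jak3.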

Other observations

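The balance between the chain shared by interleukins 2 and 15 and the alpha chains differed between the anti-PD-L1 libraries by more than among the controls. Per kilobase of exon, the ratio of the Il2rb level to the Il2ra level was 48.7 and 17.8 in anti-PD-L1 replicates 1 and 2, against 18.6, 14.7 and 24.7 in Control IgG replicates 1, 2 and 3. The ratio of Il2rb to Il7r was 77.4 and 20.2 after anti-PD-L1, against 21.9, 15.8 and 23.9 in controls. Replicate 1 stood alone on both, and replicate 2 lay within the controls. The position of replicate 1 follows from the levels given above, where Il2rb was highest and Il2ra and Il7r lowest in that library. These 2 ratios are therefore not separate evidence. The ratio of Jak1 to Jak3 was 0.851 and 1.22 after anti-PD-L1, against 1.67, 1.43 and 0.812 in controls, where the groups overlapped. Within Jak3, the embedded gene Insl3 stood at 0.0927 and 3.58 CPM after anti-PD-L1, against 0, 2.71 and 2.15 CPM in controls, and was near 0 in the 2 libraries numbered 1.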
